A study of Mus musculus with 4 samples.

Results

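CD8 T cells were picked out of single-cell RNA libraries of mouse liver by the RNA of their receptor genes. Cells were selected on measured counts: a barcode entered with at least 3 UMIs (unique molecular identifiers, each a counted transcript molecule) summed over Cd3d, Cd3e and Cd3g and at least 2 over Cd8a and Cd8b1. It could hold at most 2 over the proliferation genes Top2a and Mki67, and none of Cd4, Cd79a, Siglech or Clec4f, which mark helper T cells, B cells, plasmacytoid dendritic cells and Kupffer cells. The rule found 693 cells among 19176 barcodes kept for having 300 genes or more and a mitochondrial share of UMIs no higher than 20%. These genes therefore chose the cells, and their levels are given as a description only.

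CD8 T cells recognise peptides on MHC class I with the T cell receptor and kill the presenting cell with perforin and granzymes. Naive cells carry Ccr7 and recirculate through lymph nodes, while effector and memory cells make Ccl5 and granzymes and can settle in tissues such as the liver, where Cxcr6 is a usual marker. Repeated receptor stimulation is known to bring up inhibitory receptors such as PD-1 (Pdcd1) and TIM-3 (Havcr2) together with the transcription factor Tox. TNF signals through Tnfrsf1a and Tnfrsf1b to the NF-kB factors, which switch on their own inhibitors among many other genes.

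The mice were 2 months old and of genotype A/A or S/S, letters that the labels do not spell out. Livers were taken at baseline or 3 h after 500 ng of TNF into the peritoneum, and 1 library was made for each of the 4 groups from the pooled cells of 2 mice. Perfused and digested livers went through a 40 µm strainer, low-speed spins to gather non-parenchymal cells, a Ficoll step against dead cells, and sorting by flow cytometry for macrophages and live cells. Lists of 4 values give the baseline libraries first (A/A, then S/S) and then the TNF libraries in the same order. With 1 library a group no difference between libraries was tested, differences between mice and preparations are not covered, and every interval is a 95% interval for counting error alone. Both baseline libraries were made with another software version than both TNF libraries, so that version and TNF cannot be told apart.

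The gate held 77, 312, 211 and 93 CD8 T cells with 857479, 2565294, 2184945 and 945698 summed UMIs, and a median of 10725, 7692.5, 9342 and 8063 UMIs per cell. No CD8 barcode was shared between libraries. Both chains of the CD8 dimer, Cd8a and Cd8b1, were detected in 70.1, 79.2, 68.2 and 90.3% of the cells, and Cd8a alone in 26.0, 15.1, 29.9 and 7.53%. At the edge of the rule, 6, 32, 10 and 9 cells held exactly 2 Cd8 UMIs, and a further 4, 37, 24 and 10 barcodes met the rest of the rule with 1. Proliferation genes removed 10, 27, 13 and 21 T cells with enough Cd8 UMIs, and Clec4f removed 9, 22, 10 and 7. Some members carried RNA of neighbouring lymphocyte types: Trdc, the constant region of the gamma-delta receptor, was seen in 20.8, 3.53, 12.8 and 3.23% of cells, and Klrb1c (NK1.1) in 20.8, 17.3, 41.2 and 16.1%.

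CD8 T cells made up 2.72% (2.15 to 3.39), 7.15% (6.4 to 7.95), 3.27% (2.85 to 3.73) and 1.68% (1.36 to 2.06) of kept cells. The S/S baseline library thus stood highest and the S/S TNF library lowest, and no pair of these intervals overlapped except those of the 2 A/A libraries. Against all cells passing the Cd3 criterion the shares were 15.9, 31.9, 20.6 and 30.6%, so among T cells both S/S libraries were higher. The ratio to CD4 T cells was steadier: CD8 cells were 57.0, 61.3, 65.1 and 65.5% of gated CD8 and CD4 cells together, with overlapping intervals. The flow sort can set all of these shares, and its part was not tested.

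**Figure D1:**
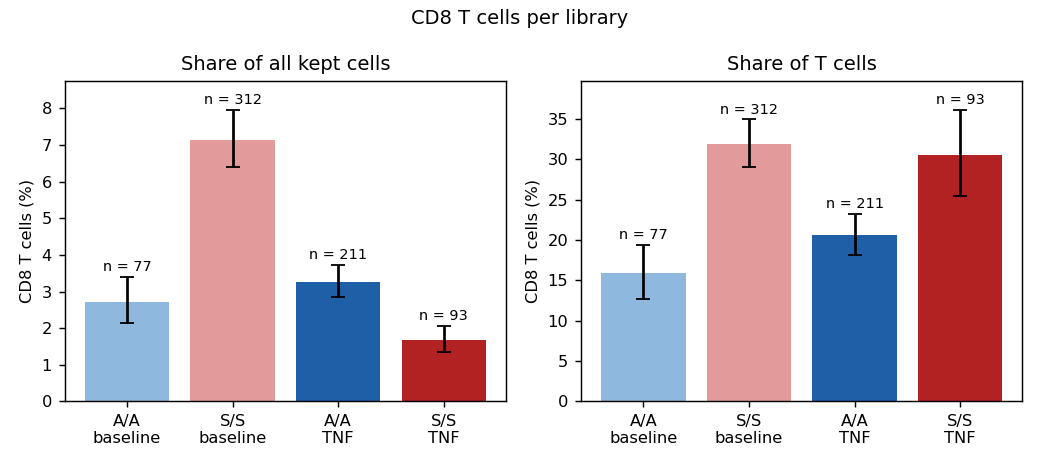
CD8 T cells as a percentage of all kept cells (left) and of gated T cells (right) in each library (y axes, percent; n is the number of CD8 T cells); lines on the bars are exact binomial 95% intervals. Of kept cells the S/S baseline library holds 7.15% and the S/S TNF library 1.68%, while of T cells the S/S libraries hold 31.9 and 30.6% against 15.9 and 20.6% in A/A.

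Most of these cells had the RNA of effector or memory cells. Ccl5, a chemokine of effector cells, was detected, after thinning every cell to 1000 UMIs, in 87.0, 94.9, 87.7 and 89.2% of CD8 T cells, against 1.26, 8.85, 2.52 and 2.06% of B cells, a type expected to lack it; unthinned, the CD8 shares were 92.2, 98.1, 91.9 and 91.4% and the B cell shares 10.3, 35.8, 18 and 12.3%, at median depths of 8726, 5989.5, 9879.5 and 9311 UMIs in B cells. In CD4 T cells thinned the same way Ccl5 was detected in 31.0, 46.7, 33.6 and 16.3%. Cxcr6 was detected in 23.4, 37.2, 20.4 and 23.7% of thinned CD8 T cells and Gzmk in 14.3, 21.5, 11.4 and 22.6%, against 0 to 0.369% and 0% of B cells. Ccr7, of naive cells, was seen in 1.30, 0.641, 1.90 and 3.23% of CD8 and 5.17, 1.02, 9.73 and 2.04% of CD4 T cells, so that of these 4 genes Ccl5 alone was seen in most thinned CD8 T cells.

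Set against CD4 T cells of the same libraries, where the 4 libraries serve as replicates, CD8 T cells had 201 genes higher and 252 lower among 8157 tested, that is 2.46 and 3.09% (edgeR's quasi-likelihood test with library as a block, Benjamini-Hochberg adjusted p under 0.05). The cytotoxic list had 10 of 16 members higher and none lower, with a median log2 ratio of 1.40 against -0.02 over all genes. Beside it, 5 of 8 NK and ILC1 markers and the 1 gamma-delta marker tested were higher. The NK and ILC1 list holds Gzma and Eomes, which cytotoxic CD8 T cells also make, so it does not mark innate-like cells alone. The CD4 gate left out cells with Klrb1c while the CD8 gate did not. Without CD8 T cells holding Trdc, Klrb1c, Ncr1 or Foxp3 RNA, a setting added after values were seen, 248 genes were called, with 8 of 16 cytotoxic genes, 12 of 24 memory genes and 4 of 8 NK and ILC1 markers higher, and 6 of 18 naive and 5 of 58 interferon-stimulated genes lower; Maf (adjusted p = 0.171) and Tox (adjusted p = 0.148) were not called. Of the memory and effector differentiation list 14 of 24 were higher and 1 lower, and of the naive list none of 18 was higher and 11 were lower. The interferon-stimulated list had none higher and 12 lower of 59. Gate genes were left out of the fit. Without the S/S baseline library, the fit called 283 genes in place of 453, with 8 of 16 cytotoxic and 13 of 23 memory genes higher and 9 of 18 naive genes lower; of the interferon-stimulated list 2 of 57 were then higher and 8 lower. Without the library block it called 45 genes, with 7 cytotoxic and 8 memory genes higher, no naive gene lower and 1 interferon-stimulated gene lower.

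Among the genes with the largest ratios was Eomes, a transcription factor of cytotoxic lymphocytes, at 38.6, 71.2, 55.1 and 70.0 CPM (UMIs scaled to 1e6 per library, here over the genes of the fit) in CD8 and 1.24, 1.18, 0 and 0 in CD4 cells (log2 ratio 6.20, adjusted p = 1.8e-06). Gzma, a granzyme, stood at 1018, 4136, 1138 and 2810 against 4.94, 28.3, 93.1 and 3.92 CPM (6.04, adjusted p = 3.2e-05). Both genes were far above the CD4 level in each library. Gzmb (log2 ratio 4.41), the orphan receptor gene Nr4a2 (4.92), the NK receptor gene Klre1 (4.77) and Cd7 (3.79, adjusted p = 7.4e-07), a surface protein of T and NK cells, were also higher. On the CD4 side stood Cd40lg, the ligand by which helper cells license B cells (-4.08, adjusted p = 1.0e-06), the costimulatory receptor genes Icos (-2.53) and Tnfrsf4 (-2.67), and Izumo1r (-2.64), the folate receptor 4 gene. All of these kept their sign in 4 of 4 libraries.

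The checkpoint and exhaustion list divided: 8 of 13 tested members were higher in CD8 T cells and 4 lower. Lag3, an inhibitory receptor, was higher in all 4 libraries (4.03, adjusted p = 3.1e-06), as were Entpd1 (0.95) and Tox (0.67). Pdcd1 was higher (1.91, adjusted p = 0.0040) in 3 of 4 libraries; in the A/A TNF library it stood at 15.6 CPM in CD8 and 15.9 in CD4 cells. Ctla4 (-2.02), an inhibitory receptor that regulatory T cells also carry, and the transcription factor gene Maf (-1.51) were lower than in CD4 cells in every library. Without the S/S baseline library the adjusted p was 0.107 for Pdcd1, 0.176 for Tox and 0.073 for Entpd1, and 4 of 12 list members were higher and 3 lower. For Maf it was 0.155 without A/A baseline and 0.086 without A/A TNF. Without the block Ctla4, Maf, Pdcd1, Tox, Entpd1, Tnfrsf4, Nr4a2, Fasl and the chemokine genes Ccl3 and Ccl4 were not called. Among secreted proteins, Ccl3 (3.71), Ccl4 (3.45), Ccl5 (3.85) and Fasl (1.89) were higher in CD8 T cells.

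Between the genotypes, inhibitory receptor genes were higher in the S/S libraries in both conditions. At baseline 9 of 15 checkpoint and exhaustion genes were over 2-fold higher in S/S and 1 lower. After TNF these were 8 and 1 of 15, and the median log2 ratios were 1.23 and 1.14. The baseline median was 0.61 without cells in which any of 3 T cell receptor V genes, described further on, was detected. Of all genes counted at least 20 times in a pair of libraries, 909 of 9416 (9.65%) were over 2-fold higher and 312 (3.31%) lower in S/S at baseline, and 419 (4.76%) and 358 (4.07%) of 8797 after TNF, with medians of 0.10 and -0.02. After TNF the balance turned under other settings, to 388 and 454 without ribosomal protein, mitochondrial and Rn18s genes in the totals, 288 and 388 with a stricter gate, and 205 and 523 with each gene's top barcode left out. Ratios here are log2 of CPM plus 1, which understates the change of low genes. Scaling by median of ratios gave 726 higher and 440 lower at baseline, and totals without ribosomal protein, mitochondrial and Rn18s genes gave 781 and 456, moving the median by about 0.10 to 0.00. The pairs share no library, and 125 of 8335 genes (1.5%) were over 2-fold higher in both and 36 (0.432%) lower in both: 17.9% of the 698 genes higher at baseline and 42.8% of the 292 higher after TNF, and 15.8% of 228 and 11.3% of 318 for lower genes. The S/S baseline library stood apart in Rn18s-rs5, a ribosomal RNA gene at 172649, 60357, 149813 and 140176 CPM in CD8 T cells and lowest there in every gate compared. Cmss1, a gene with long introns, was at 15956 and 6819 CPM in the 2 baseline libraries, with the same order in every gate. The baseline ratio also ran with intron length, with a median of 0.41 for genes with under 1 kb of annotated intron and -0.23 for those with over 100 kb, against -0.04 and -0.01 after TNF; the part of this in the baseline counts was not tested.

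**Figure D2:**
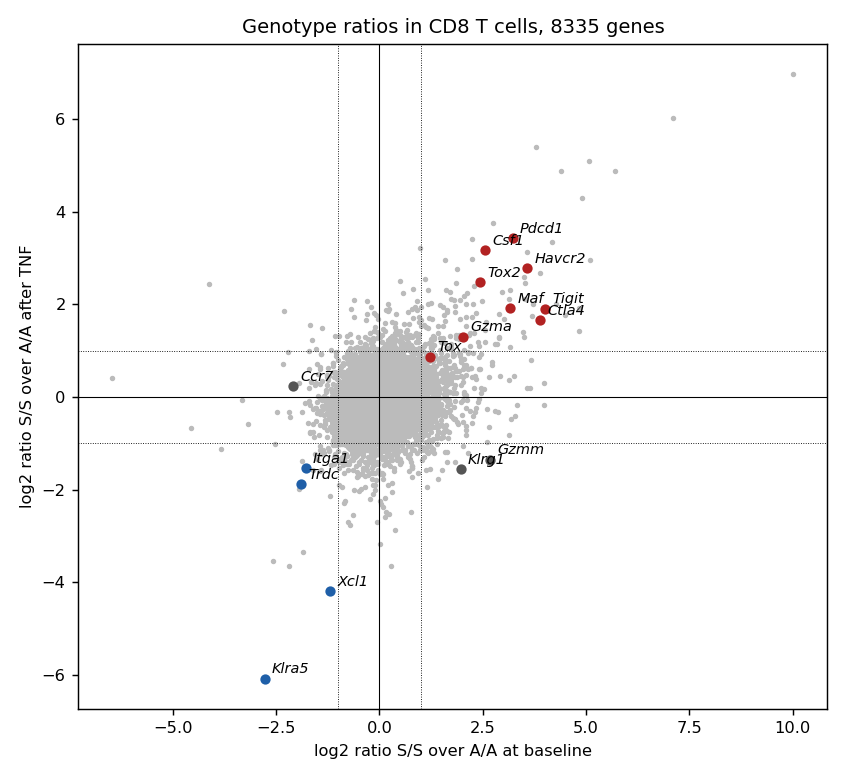
Log2 ratio of S/S over A/A in CD8 T cells at baseline (x axis) and after TNF (y axis) for the 8335 genes counted at least 20 times in both pairs; each point is a gene, coloured points are labelled and dotted lines mark 2-fold. Pdcd1, Havcr2 and Csf1 lie higher in both pairs, Klra5, Trdc, Itga1 and Xcl1 lower in both, and the outermost grey points at the upper right are the haemoglobin genes Hbb-bt and Hba-a1.

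Pdcd1, which encodes PD-1, stood at 19.8, 193, 15.6 and 177 CPM. Both S/S libraries were high and both A/A libraries low, with log2 ratios of 3.22 (2.59 to 4.08) at baseline and 3.42 (2.97 to 4.08) after TNF. Havcr2, the TIM-3 gene, followed the same order at 4.66, 66.3, 6.87 and 52.9 CPM (3.57 and 2.78). Maf, a factor linked to inhibitory receptor and IL-10 expression, was at 21.0, 196, 39.4 and 151 CPM (3.16 and 1.92), and Tox2, a relative of Tox, at 3.50, 23.4, 4.12 and 27.5 CPM (2.44 and 2.48), the lowest of these from 3 UMIs (interval of its baseline ratio 1.12 to 5.06). These 4 genes separated the genotypes in the same direction under both conditions. This order was not particular to CD8 T cells. In CD4 T cells Pdcd1 was at 8.64, 37.6, 15.9 and 21.5 CPM and Havcr2 at 0, 1.18, 5.86 and 19.55 CPM. Both were thus higher in S/S in both pairs there too, at lower levels. Maf in CD4 T cells was at 139, 280, 331 and 186 CPM, higher in S/S at baseline alone.

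The inhibitory receptor genes Tigit, Ctla4 and Lag3 and the transcription factor gene Tox were highest in the S/S baseline library. Tox was also higher in both baseline than in both TNF libraries, where software version and TNF cannot be told apart. Tigit was at 2.33, 52.6, 3.20 and 14.8 CPM, from 2 UMIs in the A/A baseline library, so that its baseline ratio of 4.01 has an interval of 2.62 to 7.56 (1.91 after TNF). Ctla4 was at 5.83, 99.4, 7.32 and 25.4 CPM (3.88 and 1.66), and 1 cell held 80% of its 5 UMIs in the A/A baseline library. In CD4 T cells Tigit was at 1.23, 22.3, 1.675 and 3.91 CPM and Ctla4 at 50.6, 172, 64.5 and 190 CPM. Both were higher in S/S in both pairs there as well. Lag3 at 40.8, 89.3, 31.1 and 48.6 CPM (1.11 and 0.63) and Tox at 428, 1002, 84.2 and 154 CPM (1.23 and 0.87) were past 2-fold at baseline alone. Not every member of the list followed: Cd160, an inhibitory receptor of cytotoxic cells, was lower in S/S at 278, 186, 326 and 153 CPM (-0.58 and -1.08), and Cd244a (-0.29 and -0.26) and Cd38 (0.11 and 0.12) differed little.

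**Figure D3:**
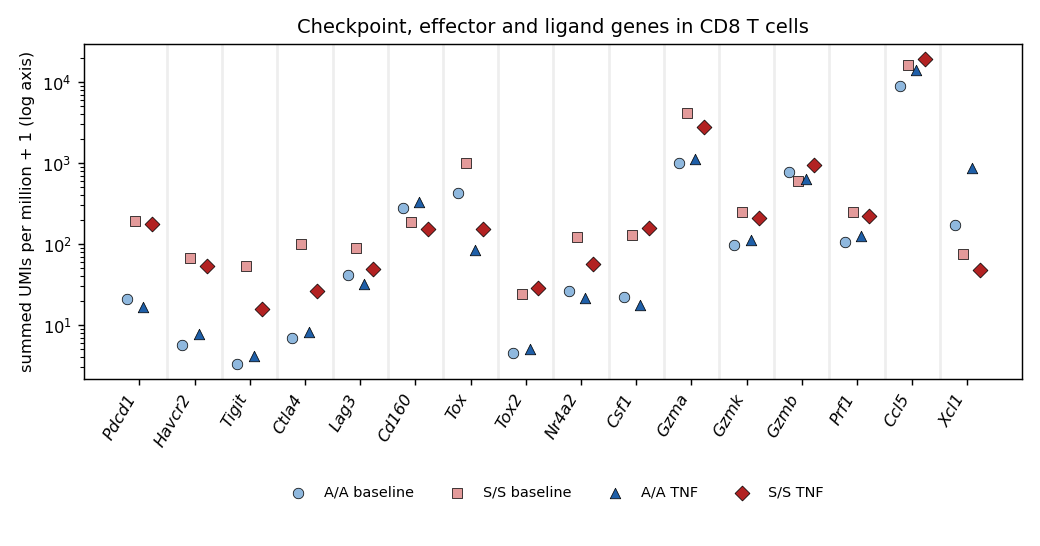
CPM plus 1 (log axis) of inhibitory receptor, granule and ligand genes in CD8 T cells; each symbol is 1 library, with no error bars because each group is 1 library. Pdcd1 lies at 193 and 177 CPM in the S/S libraries and at 19.8 and 15.6 in the A/A libraries, Cd160 lies lower in S/S, and Xcl1 is high in the A/A TNF library alone.

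Secreted ligands and cytokines as a list had no such pattern, with 4 of 20 over 2-fold higher and 4 lower in S/S at baseline and 1 and 7 of 21 after TNF (medians 0.10 and -0.20). Single genes for secreted, costimulatory and regulatory proteins were higher in both pairs. Csf1, the growth factor that macrophages depend on, was at 21.0, 128, 16.5 and 156 CPM, high in both S/S libraries (2.55 and 3.17). In CD4 T cells Csf1 was at 6.17, 5.29, 44.4 and 5.86 CPM, with no such order. Tnfrsf18 (GITR), a costimulatory receptor, was at 43.1, 157, 76.9 and 187 CPM (1.84 and 1.27). Ahr, a ligand-gated transcription factor, was at 24.5, 61.2, 32.0 and 81.4 CPM (1.29 and 1.32), and Crem, a cAMP-responsive regulator, at 11.7, 43.7, 9.61 and 37.0 CPM (1.82 and 1.84). Tnfrsf4 (OX40), at 2.33, 21.4, 1.83 and 37.0 CPM, had 74% of its UMIs in the S/S TNF library in 1 cell. The costimulation list had 4 of 15 members over 2-fold higher at baseline and 3 of 15 after TNF, and 1 lower each time: Cd226, an activating receptor that shares ligands with Tigit, at baseline (851, 394, 156 and 80.4 CPM), and the receptor gene Crtam after TNF (25.7, 45.2, 90.6 and 31.7 CPM).

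Granule genes moved with genotype unevenly: 7 of 17 were over 2-fold higher in S/S at baseline and none lower, and 2 of 18 higher and 2 lower after TNF (medians 0.92 and 0.40). Gzma was at 1015, 4119, 1134 and 2801 CPM (2.02 and 1.30) and was high in both S/S libraries. Gzmk, a granzyme of memory-type cells, at 96.8, 244, 110 and 208 CPM (1.33 and 0.91) and Prf1, the pore-forming perforin, at 106, 246, 124 and 220 CPM (1.21 and 0.83) had the same order. Serpinb9, which shields the killer cell from its own granzyme B, was at 25.7, 82.3, 75.1 and 158 CPM (1.64 and 1.06). Gzmb itself had no such order at 778, 601, 627 and 949 CPM (-0.37 and 0.60), and Ifng, the interferon gamma gene, differed by less than 2-fold at 40.8, 43.3, 49.4 and 67.7 CPM. Ccl3 and Ccl4, chemokines of activated effector cells, were highest at S/S baseline at 31.5, 203, 103 and 140 and at 286, 859, 351 and 266 CPM.

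Genes lower in S/S in both pairs included receptors of innate-like lymphocytes. Klra5, an NK receptor gene of the Ly49 family, was at 230, 32.7, 66.4 and 0 CPM, and against a floor of 3 UMIs it was at least 20.9-fold lower in S/S after TNF; Ly49 genes are near copies of each other and counts may be split among them. Trdc was at 155, 40.9, 135 and 36.0 CPM (-1.90 and -1.88), and 1 cell held 59% of its UMIs in the S/S TNF library. Itga1, the CD49a integrin of liver-resident lymphocytes, was at 356, 103, 137 and 46.5 CPM (-1.78 and -1.54), and in CD4 T cells at 40.7, 76.4, 43.6 and 15.6 CPM. Tnfsf10, the death ligand TRAIL, was at 156, 56.9, 66.8 and 31.7 CPM (-1.44 and -1.05), and Dtx1, a Notch pathway ubiquitin ligase, at 138, 37.0, 79.2 and 29.6 CPM (-1.87 and -1.39).

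The share of cells with Trdc RNA, given above, was also lower in S/S in both pairs, while that with Klrb1c RNA was similar between the genotypes at baseline and highest in A/A TNF; their part in these genes was not tested. Gamma-delta markers summed to 303, 125, 309 and 114 CPM, with all 4 tested members lower in S/S at baseline (2 of them past 2-fold), all 4 lower after TNF (3 past 2-fold), and 1, 2, 1 and 4 of the 8 at 0. Without the cells that had Trdc, Klrb1c, Ncr1 or Foxp3 RNA, the lists of higher genes stayed of like size, with 1149 genes over 2-fold higher and 321 lower in S/S at baseline and 384 and 286 after TNF. Trgc4, a gamma chain constant gene that was lower in S/S in both pairs (-1.36 and -1.18), was not lower after TNF among cells with both Cd8 chains (0.28).

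RNA of other cell types also differed between the genotypes. Erythroid markers summed to 28, 2823, 54.5 and 2695 CPM in CD8 T cells, led by Hba-a1 at 10.5, 1575, 22.9 and 1550 CPM. They summed to 2466, 28816, 3715 and 43489 CPM in all other kept cells. Marker sums of dendritic cells were 357, 752, 651 and 2496 CPM, those of B cells 307, 579, 537 and 1438 CPM, those of Kupffer cells 46.6, 184, 67.3 and 122 CPM and those of hepatocytes 372, 194, 169 and 334 CPM. Monocyte markers summed to 541, 1193, 712 and 1086 CPM, with 6 of 7 over 2-fold higher in S/S at baseline and 5 of 7 after TNF. A large part of that sum was Ly6c2, also a memory marker of CD8 T cells, which was within 2-fold between the genotypes. The dendritic cell list likewise holds Ccr7, a gene of naive T cells. Endothelial markers summed to 24.5, 42.1, 71.4 and 237 CPM, with 1 of 1 and 6 of 8 over 2-fold higher in S/S. The part of RNA from other cell types in the genotype differences was not tested. A further setting left out cells with over 1% of UMIs from other types' markers, a limit that the summed erythroid RNA does not reach. Its marker set excluded Ly6c2, Ccr2, Ccr7, Bst2, Cd74 and some other members of these lists. With it, 884 genes were over 2-fold higher and 276 lower in S/S at baseline, and 349 and 374 after TNF. Pdcd1 was at 0, 0.722, 0.725 and 0 CPM in B cells and at 0 in all 4 libraries in NK-type cells.

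Naive-cell genes were lower in S/S at baseline. None of 18 was over 2-fold higher and 4 were lower (median -0.67), and after TNF no member was past 2-fold either way (-0.12). Ccr7, the lymph node homing receptor, was at 36.2, 7.80, 40.3 and 47.6 CPM, lowest at S/S baseline. Dapl1, a gene of quiescent naive cells, was at 39.7, 3.51, 27.5 and 18 CPM (-3.17 and -0.58). Tcf7, the TCF-1 factor of naive and stem-like cells, was at 156, 89.3, 191 and 198 CPM. Il7r, the survival receptor of resting T cells, was at 253, 156, 325 and 371 CPM. The S/S baseline library was the lowest of the 4 for each of these 4 genes.

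Of the memory and effector differentiation list 1 of 25 was over 2-fold higher in S/S and none lower at baseline, and 1 and 5 after TNF. The tissue residency list had 3 of 16 higher and 5 lower at baseline, and 2 and 2 after TNF. Cxcr3, a receptor for inflammatory chemokines, was at 94.5, 109, 97.5 and 85.7 CPM and the adhesion receptor gene Cd44 at 132, 92.8, 121 and 100 CPM, all within 2-fold. Ly6c2, a memory marker, was at 443, 621, 479 and 406 CPM and Cxcr6 at 317, 458, 198 and 217 CPM. Eomes was at 38.5, 70.9, 54.9 and 69.8 CPM. Tbx21, the T-bet gene, was at 147, 98.6, 42.6 and 16.9 CPM, lower in both TNF libraries and lower in S/S within each condition. Itgae, the CD103 integrin of epithelial residents, was low in all, at 23.3, 8.58, 18.3 and 13.7 CPM.

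Pdcd1 RNA was carried by a subset of cells. At least 1 UMI was present in 8 of 77, 147 of 312, 15 of 211 and 35 of 93 CD8 T cells, which is 10.4, 47.1, 7.11 and 37.6%. Thinned to 1000 UMIs a cell, the shares were 2.60% (0.32 to 9.07), 15.7% (11.8 to 20.2), 1.90% (0.52 to 4.78) and 10.8% (5.28 to 18.9), so the order held at equal depth. In B cells thinned alike the share was 0 to 0.12%, and in CD4 T cells 3.45, 2.54, 1.77 and 0%. Cells with and without Pdcd1 had a median of 9317 and 11000, 7025 and 8658, 9218 and 9350, and 7933 and 8342 UMIs.

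The split of cells by Pdcd1 was chosen after its levels were seen and describes which RNA went with it. In the S/S baseline library, cells with Pdcd1 against cells without had 1901 and 305 CPM of Tox, 143 and 6.9 of Havcr2, 390 and 45.7 of Maf, and 272 and 15.9 of Csf1. Gzma was at 7097 and 1811 CPM and Gzmk at 370 and 147, while Gzmb was at 686 and 536. On the other side, Ly6c2 was at 91.1 and 1032 CPM, Tcf7 at 20.5 and 142.5, Lef1, the partner factor of TCF-1, at 17.0 and 193, and Il7r at 52.7 and 236. The Pdcd1 cells thus held more Tox, Havcr2, Maf, Csf1 and Gzma RNA and less of Ly6c2, Tcf7, Lef1 and Il7r. Whole groups did not divide this way: the inhibitory receptor genes Cd160 (120.5 and 236 CPM), Btla (5.36 and 37.4) and Klrg1 (5.36 and 41.5) were lower in the Pdcd1 cells, and the memory genes Cxcr6 (598 and 349) and Eomes (105 and 44.3) were higher.

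In the S/S TNF library these genes lay on the same sides except Gzmb, which was at 892 CPM in cells with Pdcd1 and 982 in cells without. Csf1 was at 388 and 18.6 CPM, Maf at 303 and 60.8, Havcr2 at 110.5 and 18.6, Gzma at 5223 and 1358, and Ly6c2 at 68.0 and 607.5. Csf1 therefore came mostly from the Pdcd1 cells in both S/S libraries, with 305 of its 328 UMIs at baseline and 137 of 148 after TNF. The A/A libraries hold few such cells: Tox was at 911 and 380 CPM at baseline (8 cells with Pdcd1) and at 229 and 72.7 after TNF (15 cells). Havcr2, Maf, Csf1 and Gzma were also higher, and Lef1 and Il7r lower, in the Pdcd1 cells of both A/A libraries, some from few UMIs. Ly6c2 was not lower in them at A/A baseline (469 and 441 CPM). In A/A TNF, Tcf7 was nearly even (186 and 191) and Cxcr6 was lower in them (161 and 201). Trdc was at 859 CPM in the 8 A/A baseline cells with Pdcd1 and at 0.9 in the 147 of S/S baseline.

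T cell receptor variable genes were unevenly used in the S/S baseline library, a feature chosen after values were seen. Of 129 cells with any alpha chain V gene (Trav) UMI there, 42 had Trav7-6 (32.6%, 24.6 to 41.4) and 40 had Trav16 (31.0%, 23.2 to 39.8). Of 107 cells with a beta chain V gene (Trbv) UMI, 38 had Trbv13-1 (35.5%, 26.5 to 45.4). In the other libraries, in the same order, Trav7-6 was found in 0 of 28, 5 of 67 and 0 of 25 cells with any Trav UMI. Trav16 was found in 2, 2 and 1 of these cells. Of cells with any Trbv UMI, Trbv13-1 was in 0 of 25, 8 of 57 (14.0%, 6.26 to 25.8) and 5 of 22 (22.7%, 7.82 to 45.4). It was the most often detected Trbv gene in both TNF libraries too, and its S/S TNF interval overlaps that of S/S baseline. Trav7-6 and Trbv13-1 were seen together in 21 S/S baseline cells, and Trav16 with neither. The genes lie at chr14:53716716-53717291 (Trav7-6), chr14:53743104-53743705 (Trav16) and chr6:41116007-41116468 (Trbv13-1) in GRCm38, all on the plus strand and annotated as receptor V genes; Trav16 has a near copy, Trav16n, at chr14:53351028-53351621, and reads may be split between them.

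These V genes went with Pdcd1 in the S/S baseline library: 39 of the 42 Trav7-6 cells, 30 of the 40 Trav16 cells and 36 of the 38 Trbv13-1 cells had a Pdcd1 UMI. Of the 99 cells with any of the 3, 85 had Pdcd1 (85.9%, 77.4 to 92.1), against 62 of the other 213 (29.1%, 23.1 to 35.7). That second share was above the 7 of 75 (9.33%, 3.83 to 18.3) in A/A baseline cells without a UMI of these V genes. After TNF such cells had Pdcd1 in 34 of 87 (39.1%) in S/S and 15 of 198 (7.58%) in A/A. The link was not seen after TNF, where cells with any of the 3 V genes were few. Among them Pdcd1 was in 1 of 6 (16.7%, 0.42 to 64.1) in S/S and 0 of 13 (0 to 24.7%) in A/A. Only 129 of the 312 S/S baseline cells had any Trav UMI and 107 any Trbv UMI. Cells without a detected UMI may use the same V genes, so neither these shares nor the ratios below show what holds apart from them. Without the cells in which any of the 3 was detected, the S/S to A/A ratio at baseline was 2.51 for Pdcd1, 2.88 for Havcr2 and 3.09 for Maf. For Csf1, Gzma and Tox it was 1.49, 1.19 and 0.57. With those cells the ratios, in the same order, were 3.22, 3.57, 3.16, 2.55, 2.02 and 1.23. Pdcd1, Havcr2, Maf, Csf1 and Gzma stayed past 2-fold, and Tox did not. Of the checkpoint list 7 of 15 were then over 2-fold higher at baseline, in place of 9, and the median ratio was 0.61 in place of 1.23. With 2 mice pooled, cells of 1 mouse and of both cannot be told apart.

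**Figure D4:**
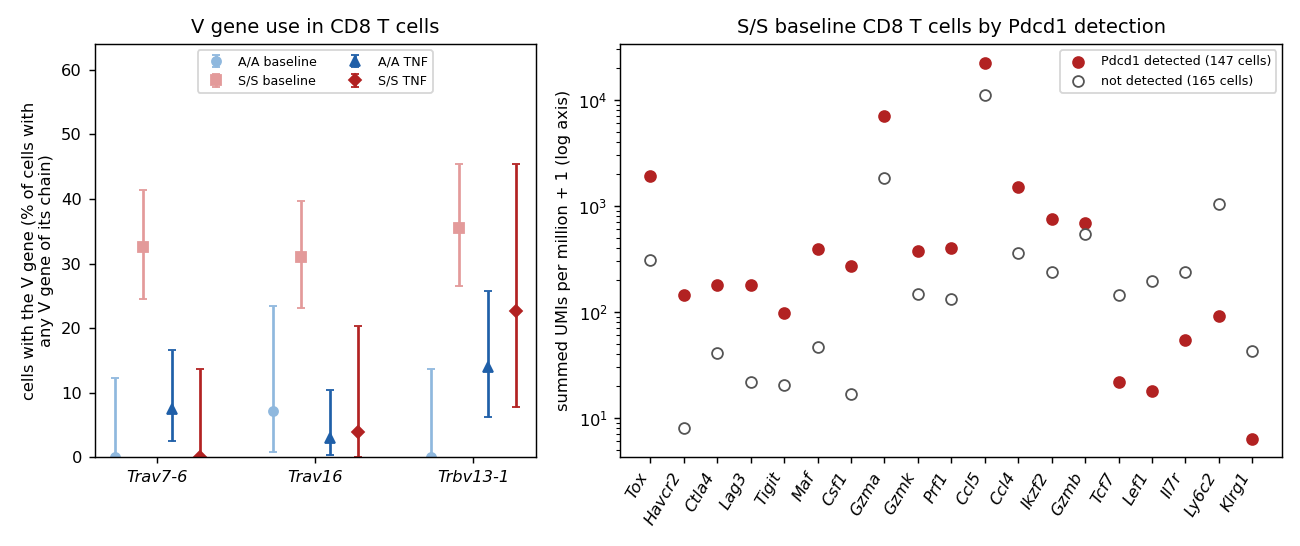
Left, cells with each of 3 V genes as a percentage of cells with any V gene of its chain, by library (bars are exact binomial 95% intervals); right, CPM plus 1 (log axis) in S/S baseline cells with Pdcd1 (filled) and without it (open). The 3 V genes lie at 31.0 to 35.5% in S/S baseline, and Tox, Havcr2, Maf, Csf1 and Gzma lie higher in the Pdcd1 cells while Ly6c2, Tcf7, Lef1 and Il7r lie lower.

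After TNF, genes of the NF-kB response were higher in CD8 T cells of both genotypes. Over 2-fold higher were 12 of 33 listed genes in A/A and 18 of 34 in S/S, and none was lower. The median log2 ratios were 0.70 and 1.09. Genes with under 1 kb and with 1 to 10 kb of annotated intron had medians of 0.56 and 0.45 in A/A. In S/S these were 0.10 and -0.002. All 19 translation factors were above 0 in A/A, with a median of 0.65 (0.16 in S/S). The part of intron length in the list's ratios was not tested. Over all genes, 816 of 8829 (9.24%) were over 2-fold higher and 1508 (17.1%) lower in A/A. In S/S 477 of 9538 (5.0%) were higher and 1863 (19.5%) lower, and the medians over all genes were -0.03 and -0.22. Totals without ribosomal protein, mitochondrial and Rn18s genes gave 1129 and 1294 in A/A and 679 and 1552 in S/S, and scaling by median of ratios gave 677 and 1486 in S/S, which moved the medians to 0.12 and -0.04 under the first and to -0.02 in S/S under the second.

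Several inhibitors and subunits of NF-kB were over 2-fold higher in both genotypes. Nfkbia, the inhibitor that ends the response, was at 112, 115, 419 and 576 CPM, low in both baseline and high in both TNF libraries (log2 ratios 1.89 and 2.32). Nfkb2 and Relb, the subunits of the alternative pathway, were at 14.0, 12.1, 87.9 and 82.5 CPM (2.57 and 2.67) and at 17.5, 22.2, 84.7 and 75.1 CPM (2.21 and 1.71). Bcl3, a nuclear partner of the subunits, was at 19.8, 10.5, 69.1 and 90.9 CPM (1.75 and 3.00). For each of these 4 genes both TNF libraries were above both baseline libraries.

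Target genes with other roles followed. Icam1, the adhesion ligand of LFA-1, was at 43.1, 42.9, 130 and 130 CPM (1.57 and 1.58), and Sod2, a mitochondrial superoxide dismutase, at 44.3, 63.5, 114 and 226 CPM (1.35 and 1.82). Sdc4, a syndecan, was at 1.17, 2.73, 14.6 and 77.2 CPM, from 1 UMI in A/A baseline (ratio 2.85, 1.07 to 9.0) and 7 in S/S baseline (4.39). Tnfaip3, the deubiquitinase A20, was past 2-fold in S/S alone at 99.1, 124, 126 and 281 CPM (0.34 and 1.17), and Birc3, an inhibitor of cell death, in neither at 53.6, 57.3, 81.0 and 94.1 CPM (0.59 and 0.71). Ltb, lymphotoxin beta, was past it in A/A alone at 445, 391, 1042 and 456 CPM (1.22 and 0.22). The TNF receptors themselves were detected in every library, Tnfrsf1a at 39.7, 30.4, 32.5 and 31.7 CPM and Tnfrsf1b at 39.7, 49.5, 39.4 and 79.3 CPM.

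**Figure D5:**
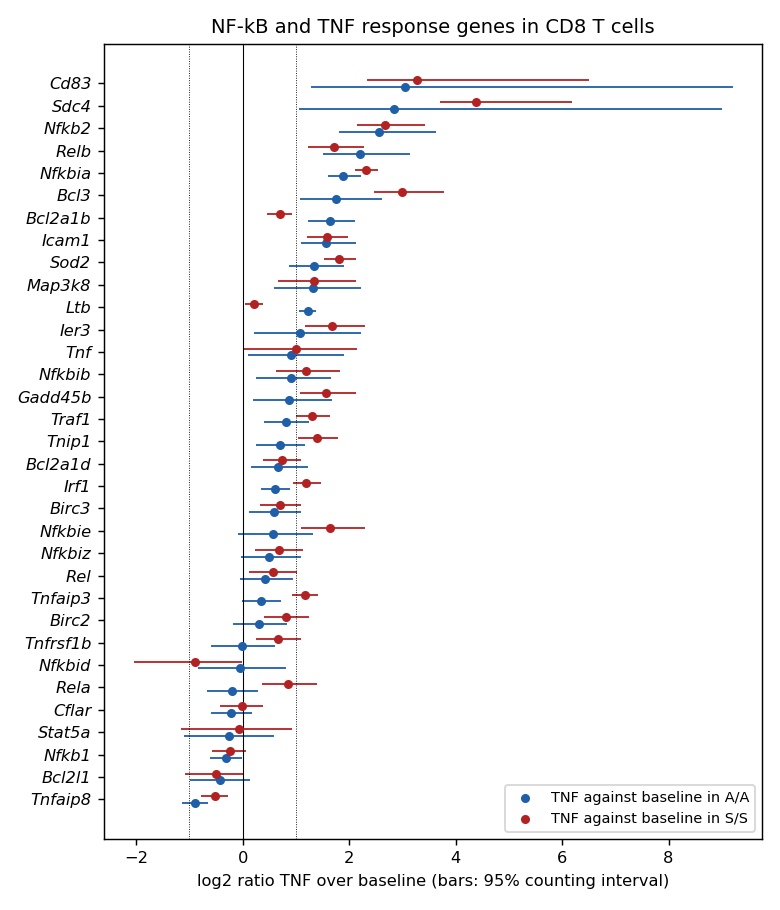
Log2 ratio of TNF over baseline (x axis) for the 33 NF-kB and TNF response genes with at least 20 UMIs in both pairs, in A/A (blue) and S/S (red); lines are 95% counting intervals and dotted lines mark 2-fold. Nfkb2, Relb, Nfkbia, Bcl3, Icam1 and Sod2 lie past 2-fold in both genotypes, and no gene lies past 2-fold lower in either.

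Promoter stretches of 3 of the list's members that were over 2-fold higher in both genotypes are shown, because they hold the general letters of an NF-kB site, GGG, any 3 bases, then TTCC, on either strand (GGAA, any 3 bases, then CCC in reverse), in the 250 bases before an annotated start. Sequences are from RefSeq on build GRCm38.p6, an earlier build than the mm39 of the counts, and run 5′ to 3′ along the gene's strand with matches in capitals. Nfkb2 has several annotated starts, of which the first is shown at chr19:46304674-46304736 (plus strand); Nfkbia is shown at chr12:55492648-55492707 and Sdc4 at chr2:164443236-164443295 (both minus strand).
Nfkb2: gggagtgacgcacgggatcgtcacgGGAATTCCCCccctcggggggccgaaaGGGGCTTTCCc
Nfkbia: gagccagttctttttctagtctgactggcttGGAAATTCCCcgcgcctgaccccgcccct
Sdc4: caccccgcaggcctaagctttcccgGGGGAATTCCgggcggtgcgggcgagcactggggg
The letters were found before a start of 1434 of 27025 genes (5.31%), of 429 of the 6804 genes with enough UMIs in both TNF pairs and a promoter in the table (6.31%), and of 10 of the 28 list members with one (35.7%). Of the 10 list members over 2-fold higher in both genotypes, 7 had a promoter in the table and 3 of these a match (42.9%). The windows of Bcl3, Icam1, Ier3 and Sod2 held no match. A match describes letters and is no measurement of binding.

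Some of these genes were higher after TNF in neighbouring cells too. Nfkbia was at 116, 177.5, 581 and 659 CPM in CD4 T cells, at 123, 152, 598 and 757 in NK-type cells and at 142, 233, 291 and 375 in B cells. In the rest of the kept cells it was at 156, 193, 1433 and 1384 CPM. Nfkb2 was higher after TNF in CD4 T cells (18.5, 14.7, 90.5 and 78.2 CPM) and in NK-type cells (18.9, 10.8, 129 and 104) but not in B cells (49.7, 50.8, 43.7 and 43.4). Relb was likewise not higher in B cells, at 52.3, 56.0, 43.0 and 39.2 CPM. Neutrophil markers were higher in the same libraries. They summed to 247, 60.4, 2308 and 2742 CPM in CD8 T cells and to 1513, 2837, 27767 and 20657 CPM in the other cells, with 3, 2, 1 and 1 of the 10 at 0 in CD8 T cells, and S100a9 was seen in 5.2, 16.7, 79.1 and 59.1% of CD8 T cells and 6.8, 15.3, 80.9 and 58.5% of B cells. The part of such RNA in the TNF differences was not tested. The setting without cells holding over 1% of UMIs of other types' markers kept 207 of 211 A/A TNF and 86 of 93 S/S TNF cells. The summed neutrophil RNA does not reach that limit, so the setting cannot remove such RNA where it is spread thinly. With it, 780 genes were over 2-fold higher and 1466 lower in A/A and 375 and 1869 in S/S.

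Immediate early genes were higher after TNF as well, with 11 of 28 over 2-fold higher in A/A and 9 of 26 in S/S and 2 lower in each (medians 0.87 and 0.69). Junb, an AP-1 subunit, was at 89.8, 142, 336 and 474 CPM (1.89 and 1.73), and Fos, its partner, at 9.33, 12.5, 35.2 and 30.7 CPM (1.81 and 1.23). Cd69, an early activation receptor that also holds T cells in tissue, was at 66.5, 101, 218 and 201 CPM (1.70 and 0.99). Nr4a1, a gene that follows receptor stimulation, was near the floor at 7.0, 5.07, 9.15 and 15.9 CPM (0.34 and 1.47).

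Interferon-stimulated genes did not move as a block: 11 of 58 were over 2-fold higher and 5 lower in A/A after TNF, and 5 higher and 9 lower of 62 in S/S (medians 0.18 and -0.16). Ly6e, a membrane protein of activated T cells, was at 377, 394, 1048 and 805 CPM (1.47 and 1.03), Socs3, a cytokine signalling inhibitor, at 17.5, 13.6, 53.5 and 51.8 CPM (1.56 and 1.85), and Gbp5, a guanylate-binding protein, at 17.5, 17.9, 47.6 and 40.2 CPM (1.39 and 1.12). The classical members Isg15 (35.0, 127, 57.7 and 78.2 CPM), Irf7 (25.7, 54.2, 39.4 and 42.3) and Ifit3 (11.7, 47.2, 11.9 and 18) were highest at S/S baseline. Among 62 tested members, 11 were over 2-fold higher and 1 lower in S/S at baseline (median 0.13).

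Outside the lists, Serpina3g, a serine protease inhibitor of activated T cells, was at 70.0, 170, 514 and 515 CPM (2.86 and 1.60) and its neighbour Serpina3f at 8.16, 28.5, 112 and 88.8 CPM (3.63 and 1.61); as near copies they may share reads. Rbm3, an RNA-binding protein known from cold stress, was at 132, 252, 377 and 662 CPM (1.51 and 1.39), and Vars, the valine tRNA ligase, at 31.5, 32.4, 143 and 114 CPM (2.15 and 1.79). Receptor signalling genes were lower: of 30 TCR complex and proximal signalling genes 1 was over 2-fold higher and 10 lower in A/A and 0 and 11 in S/S (medians -0.51 and -0.58). Of the checkpoint genes none was higher, with 4 of 12 lower in A/A and 6 of 16 in S/S, Tox among them (-2.33 and -2.69).

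Naive-cell genes parted from the rest in S/S, where 7 of 18 were over 2-fold higher and 4 lower after TNF (median 0.13), against 1 and 5 in A/A (-0.39). Ccr7 (2.47), Dapl1 (2.07), Tcf7 (1.14), Il7r (1.25) and S1pr1 (1.29), the receptor for exit from tissue, were past 2-fold in S/S, while in A/A none of these 5 was. S1pr1 stood at 46.6, 44.4, 69.1 and 110 CPM. Lef1 was lower in both, at 227, 116, 79.6 and 49.7 CPM (-1.5 and -1.21). The summed counts alone do not tell fewer cells with a gene from less RNA per cell. Of these genes, shares of thinned cells are given above for Ccr7 alone.

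The lowest ratios after TNF belonged to genes with long introns and were seen in every gate compared. Cmss1, a ribosome biogenesis factor, was at 15956, 6819, 21.1 and 19.0 CPM in CD8 T cells, and in CD4 T cells at 17170, 7061, 12.6 and 5.86. Cdk8, a Mediator kinase, was at 3735, 1852, 25.6 and 26.4 CPM, and Camk1d, a calmodulin-dependent kinase, at 4191, 1455, 22 and 27.5. The median ratio was 0.56 and 0.10 for genes with under 1 kb of annotated intron and -1.60 and -1.40 for those with over 100 kb. Among genes with under 10 kb, 554 were over 2-fold higher and 69 lower in A/A and 258 and 238 in S/S. The NF-kB and immediate early lists, Tox, Lef1 and the receptor signalling genes are to be read beside this, since the software version and TNF cannot be told apart.

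TNF and genotype met in a few genes. Xcl1, a chemokine that calls in cross-presenting dendritic cells, was at 170, 73.7, 865 and 46.5 CPM, high in the A/A TNF library alone (2.34 in A/A and -0.65 in S/S); in NK-type cells it was at 361, 312.5, 1142 and 520. Klrb1c was at 56.0, 49.9, 230 and 52.9 CPM, again high in that library alone, where 41.2% of the cells had its RNA. Klrg1, an inhibitory receptor of terminal effectors, was at 5.83, 25.7, 42.6 and 13.7 CPM, and Gzmm, a granzyme of NK and innate-like T cells, at 5.83, 42.9, 36.6 and 13.7. Gzmc was at 1.17, 0.39, 49.4 and 2.11 CPM, from 1, 1, 108 and 2 UMIs, with 31% of the 108 in 1 cell. Of 21 tested genes for secreted ligands and cytokines, 8 were over 2-fold higher and 1 lower in A/A after TNF, against 1 and 3 in S/S.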

How the data were processed

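Single-cell RNA of mouse liver cells was measured with 10x 3′ chemistry in 4 libraries, 1 per group. Per the file headers and the submitters' processing notes, the authors made the deposited UMI counts (55414 genes by barcode, whole numbers) with Cell Ranger, on build mm39; the baseline matrices came from version 7.1.0 and the TNF matrices from 6.1.2; whether introns were counted is not given in the sources used here. Libraries held 3230, 4983, 6531 and 5848 barcodes with 21088801, 30724027, 53556431 and 54999906 UMIs in all; 2830, 4366, 6452 and 5528 barcodes were kept, and 4 to 12 barcodes were shared by any pair of libraries.

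UMIs were summed over CD8 T cells per library and scaled to CPM. Ratios used a pseudocount of 1 CPM and genes counted 20 times or more in a pair. Intervals are exact binomial (Clopper-Pearson), and a fold against 0 UMIs used a floor of 3 UMIs per library. CD4 T cells met the same Cd3 and proliferation limits with at least 1 Cd4 UMI and no Cd8a, Cd8b1 or Klrb1c; they were compared with CD8 T cells in edgeR 4.0.16 (R 4.3.3; TMM scaling, filterByExpr), tested on simulated data. No doublet caller was run; the 5% of cells with the most UMIs, and cells with markers of other types, were left out as alternatives. Other alternatives were stricter and looser gates, thinning, pseudocount, filters, scaling, intron length and DESeq2 1.42.0. Intron lengths came from a GRCm38 annotation as a property of the gene alone. Of 533 listed genes 532 were found; 1 further gene, and the shares of cells that were to be set with it, are not reported here.

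Named genes followed a rule of size. Per comparison it took genes with 50 UMIs or more in the pair, at least 20 CPM in the higher library, a CPM no lower than in other cells there, and a counting interval without 0, the 10 highest and 10 lowest. Across both comparisons of 1 factor it took 10 each way, for the difference of TNF ratios 5 each way, in each list up to 4 members, in CD8 against CD4 the 10 largest each way of the same sign in all 4 libraries, and always a set of T cell, NF-kB and interferon genes. Other list members and the V genes were chosen after their values were seen. Members and lists were chosen with earlier results of these data known.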

Additional observations from a re-analysis of the deposited data

Results flagged for a closer look

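Several values moved in opposite directions in the 2 genotypes or the 2 conditions; each rests on 1 library a side and the difference was not tested. The share of CD8 T cells among kept cells was 0.55 percentage points higher after TNF in A/A (2.72 to 3.27%) and fell by 5.46 points in S/S (7.15 to 1.68%).

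Gzmm, a granzyme gene, had TNF log2 ratios of 2.46 (A/A) and -1.57 (S/S), and a genotype ratio of 2.68 at baseline and -1.35 after TNF, from 5, 110, 80 and 13 UMIs. Klrg1 had a genotype ratio of 1.97 at baseline and -1.56 after TNF, from 5, 66, 93 and 13 UMIs, of which 1 cell held 60% in the A/A baseline library. Fosb, an AP-1 gene, had genotype ratios of 1.14 and -1.08 from 8, 56, 100 and 20 UMIs.

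Trbc1, a constant gene of the T cell receptor beta chain, had TNF ratios of 1.38 (A/A) and -1.20 (S/S), at 252, 1285, 659 and 558 CPM. Its near-identical copy Trbc2 was at 983, 1532, 1333 and 1513 CPM, and reads may be split between them. The S/S baseline library, with the highest Trbc1, was also the library whose uneven V gene use is described above.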

How the results depend on the processing

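With 1 library a group, no setting speaks to differences between mice, and depth limits genes near 20 UMIs in a pair. The S/S baseline library held the largest share of CD8 T cells and the S/S TNF library the smallest under every gate and filter tried. After thinning to 1000 UMIs before gating the shares were 0.316, 1.82, 0.635 and 0.315%, so that the lowest place was then close to a tie with A/A baseline. With both Cd8 chains required they were 1.91, 5.66, 2.23 and 1.52%, without cells holding Trdc, Klrb1c, Ncr1 or Foxp3 RNA 1.73, 5.66, 1.875 and 1.41%, and with 500 genes and 10% mitochondrial UMIs as limits 3.27, 9.05, 3.88 and 2.31%. In S/S baseline the stricter gate gave 6.39% and the looser one 8.085%.

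Counts of genes past 2-fold were 1221 (S/S against A/A at baseline), 777 (after TNF), 2324 (TNF in A/A) and 2340 (TNF in S/S). Thinning gave 650, 244, 595 and 865, with 26 higher and 15 lower in S/S in both pairs. A minimum of 1 UMI gave 4289, 3590, 5982 and 5789, with 515 and 174, and one of 100 UMIs gave 356, 132, 947 and 942, with 34 and 10. A pseudocount of 5 CPM gave 731 and 428 between genotypes and 12 lower in both. Totals without ribosomal protein, mitochondrial and Rn18s genes gave 57 lower in both. Genes with under 10 kb of intron alone gave 623 and 496 after TNF. Of the checkpoint list 8 of 15 genes were over 2-fold higher in S/S after TNF, 2 of 4 tested under thinning and 2 of 8 with the 100 UMI minimum. Of the NF-kB list 18 of 34 were higher in S/S after TNF, and 8 of 18 under thinning.

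CD8 against CD4 gave 453 genes, 848 with no filter, 45 with no library block, 284 with both Cd8 chains, 248 without CD8 cells holding Trdc, Klrb1c, Ncr1 or Foxp3 RNA, 301 with DESeq2, and 283 to 365 leaving out 1 library, lowest without S/S baseline. Thinning, the UMI minimums and the intron limit leave fewer or more genes tested by construction; for the other shifts the cause was not tested.

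Of the named genes, 11 values past 2-fold changed sign. Naaa, a lysosomal amidase gene with 91% of its S/S TNF UMIs in 1 cell, went from 1.52 to -2.20, -0.66 and -0.53 after TNF between genotypes (without cells with innate or Foxp3 RNA, the deepest 5%, and cells with markers of other types). Its TNF ratio in S/S went from 2.77 to -0.61 (stricter gate), -0.29, -0.90 and -0.97 (the same 3) and -0.41 (top barcode left out). Spry2 went from 1.36 to -0.15 without cells with markers of other types, and Trgc4 after TNF from -1.18 to 0.28 with both Cd8 chains and under thinning. A further 155 of 2572 values of named genes moved out of their counting interval, 23 lost their call and 2383 stayed. A library ratio within 2-fold that crossed 0 counts among those that moved or stayed.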

Other observations

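Glycolysis genes code for the enzymes that turn glucose into lactate. Of 16 listed genes 14 had a ratio above 0 in S/S at baseline (5 past 2-fold, none past it lower) and 15 in S/S against A/A after TNF (3 higher, 1 lower), with medians of 0.59 and 0.43 beside 0.10 and -0.02 over all genes. For TNF against baseline 13 of 15 had a ratio above 0 in A/A (3 past 2-fold, none past it lower) and 14 of 16 in S/S (2 higher, 1 lower). Of all genes with under 10 kb of annotated intron, 554 of 3043 were over 2-fold higher with TNF in A/A. In S/S against A/A, genes with under 1 kb and with 1 to 10 kb had medians of 0.41 and 0.38 at baseline. After TNF these were -0.04 and -0.03. Translation factors had medians of 0.58 and -0.01 in the same pairs. The glycolysis list summed to 1362, 2342, 2165 and 3014 CPM in CD8 T cells and to 1405, 2320, 2697 and 4342 CPM in all other kept cells. In each, S/S was above A/A under both conditions. Ldha, lactate dehydrogenase, was at 101, 231, 258 and 334 CPM, and Tpi1, triosephosphate isomerase, at 9.33, 70.2, 59.0 and 132 CPM. Slc2a3, a glucose transporter, went the other way after TNF in S/S at 61.8, 56.5, 44.9 and 20.1 CPM.

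Of the survival and apoptosis list 5 of 22 genes tested were over 2-fold higher in S/S at baseline and 1 of 23 after TNF, beside 9.65 and 4.76% of all genes. With TNF 5 of 23 were higher in A/A and none in S/S, beside 9.24 and 5.0%. Bcl2a1b, an NF-kB-driven survival gene with near copies, was at 59.5, 165, 187 and 268 CPM, and Bcl2l11, the death inducer BIM, at 40.8, 99.8, 106 and 151 CPM. Both genes were lowest in the A/A baseline library. MHC class I genes were even, with none of 17 past 2-fold between the genotypes in either condition.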
